A study of Mus musculus with 16 samples.

Results

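H3K27ac peaks that were called in adult Lgr5-positive intestinal stem cells and in no other sampled cell population formed 3593 regions of the mouse genome, here called stem-cell-only regions (ISC-only in the plots). They were chosen by the presence of called peaks, by merging the overlapping or touching peaks of all 8 deposited lists into 79482 regions, and by taking those with at least 1 bp of peak in both stem cell (ISC) libraries and in none of the other 6. They make up 4.52% of the merged regions, a share that the rule itself sets. The rule used the presence of peaks in every library, so the lengths and scores below describe the chosen regions and test nothing.

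The mark was profiled by ChIP-seq, sequencing of the DNA that an antibody to H3K27ac brings down, in 4 groups of 2 libraries from mouse small intestine. The groups were adult ISC, adult enterocytes (the absorptive cells of the villus), and epithelium of embryos at E12.5 and at E14.5, named by days of gestation. All animals were of a mixed C57BL/6 CD1 strain. The adult cells came from males of the Lgr5EGFP-Cre-ERT line at postnatal day 60 (P60), so ISC and enterocytes both carried the reporter allele, whereas no such allele is given in the labels for the embryos. ISC were sorted for high EGFP from Lgr5, and the protocol names a gate on EpCAM, without CD31 and CD45, for embryonic epithelium and enterocytes. Per the series' design text the 2 libraries of a group are biological duplicates. Whether the sorted cells carried stem cell markers was not checked here, because the gene table used is on GRCm38.p6, the peaks are on mm9, and coordinates were not converted between builds. For the same reason positions on mm9 are given without gene names.

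H3K27ac is an acetyl mark on the tail of histone H3 that is found at active promoters and enhancers, and it is removed when an element falls silent. Many enhancers are active in 1 cell type or at 1 stage only, whereas most active promoters are shared. Lgr5 is a receptor that enhances Wnt signalling and marks the cycling columnar cells at the crypt base, which renew the whole epithelium of the gut, enterocytes included.

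The ISC libraries differed in how much was called. ISC replicate 1 had 44594 peaks over 51.2 Mb from 40.4 M tags, and ISC replicate 2 had 51824 peaks over 76.1 Mb from 42.1 M tags. The other 6 libraries held 34.6 to 54.6 M tags, 35614 to 52510 peaks and 38.8 to 65.1 Mb of peaks. Regions called in ISC replicate 2 alone numbered 9256, against 318 called in ISC replicate 1 alone. With ISC replicate 1 left out the rule gave 13066 regions, and with ISC replicate 2 left out it gave 6726. A group left with 1 library meets the rule more easily. The regions were also merged anew without the peaks of the library left out. These counts therefore do not follow from the 9256 and 318 regions alone, and the part of the merging was not tested.

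The stem-cell-only regions had shorter peaks than the whole list in ISC replicate 1, with a median peak of 377 bp beside 697 bp, but not in ISC replicate 2, with 884 bp beside 845 bp. They took 9.97% of the peaks and 4.72% of the covered length of ISC replicate 1, and 7.10% and 5.32% of those of ISC replicate 2. Peaks covered a median of 0.441 kb per region in ISC replicate 1 (quartiles 0.284 and 0.798 kb, range 0.207 to 7.90 kb) and 0.908 kb in ISC replicate 2 (quartiles 0.561 and 1.43 kb, range 0.219 to 8.89 kb). The covered length was greater in replicate 2 at 3370 of the 3593 regions. The median ratio of replicate 2 to replicate 1 was 1.66 at these regions and 1.22 at the 12282 regions present in all 8 libraries. In replicate 1, 2893 regions consisted of 1 peak and the rest of up to 6, whereas in replicate 2, 3507 were 1 peak and the rest had at most 2. Across the regions, the covered lengths of the replicates had a Spearman rho of 0.72 and the fold enrichments 0.51 (n = 3593 regions, both from the same 2 libraries and so with the same depth at every region).

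**Figure D1:**
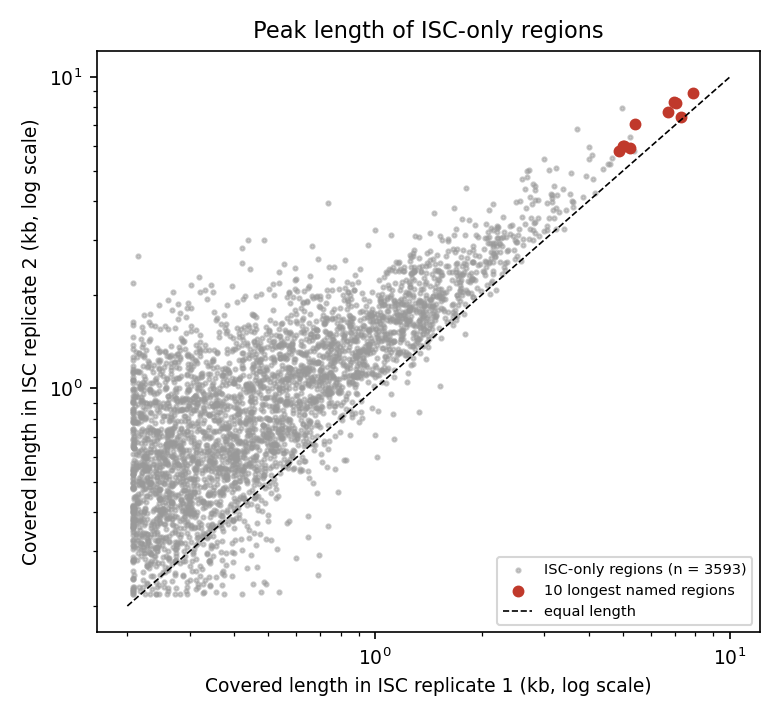
Covered length of each stem-cell-only region in ISC replicate 1 (x axis, kb, log scale) against ISC replicate 2 (y axis, kb, log scale), with grey points for the 3593 regions, red points for the 10 longest named regions and a dashed line for equal length. Most points (3370) lie above the line, and the red points lie at the upper end of both axes.

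The height of a peak within its own list was measured as the percentile of its −log10 q, a score of the authors' peak caller that rises with the evidence for a peak. The highest peak of a region stood at a median percentile of 27.2 in ISC replicate 1 (quartiles 14.2 and 42.9) and of 48.5 in ISC replicate 2 (quartiles 37.0 and 58.6). The authors' fold enrichment over local background was taken as the largest of any peak in the region. It had a median of 3.84 and a maximum of 14.2 in replicate 1, and a median of 5.56 and a maximum of 19.6 in replicate 2. At 547 regions (15.2%) the peak was at or above the 50th percentile in both lists, and at 20 regions it was at or above the 75th percentile in both. Those 20 are 0.2010% of the 9952 regions that reached the 75th percentile in both ISC lists. At the other end, 341 regions (9.49%) were under the 25th percentile in both. A −log10 q of at least 10 was reached in both ISC lists by 946 regions.

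**Figure D2:**
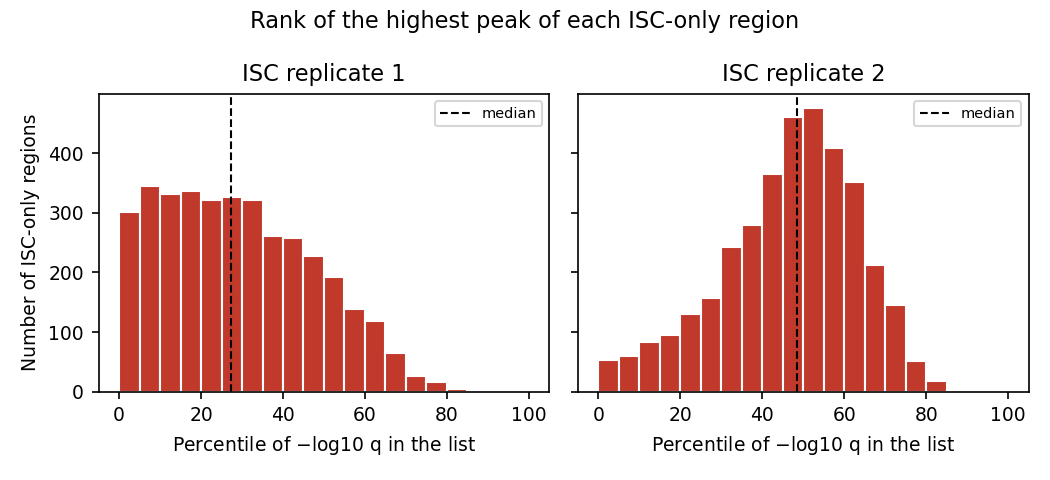
Percentile of −log10 q of the highest peak of each of the 3593 stem-cell-only regions within the list of ISC replicate 1 (left) and ISC replicate 2 (right). Bars count regions in steps of 5 percentiles, dashed lines are the medians (27.2 and 48.5), and few regions lie above 75 in either list.

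The position of the summit was not itself part of the rule, but the merging limits how far apart summits can lie. Only ISC peaks make up a stem-cell-only region, so those of the 2 libraries overlap or touch there. A short distance between summits is therefore no independent check of the replicates. The summits of the tallest peak in the 2 ISC libraries lay a median of 89 bp apart (quartiles 36 and 192 bp), and at 2739 regions (76.2%) they lay within 200 bp. Among the 1797 stem-cell-only regions of 586 to 1449 bp the median distance was 100 bp and 74.0% were within 200 bp. For the 1118 regions of that length present in all 8 libraries, the median was 32 bp and 95.2% were within 200 bp. Summits of the stem-cell-only regions were thus located less alike in the replicates than those of shared regions of the same length, given as a description without a test.

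Regions and clusters on chromosome 18 were left out before ranking, so the ranks given from here on hold among the other chromosomes. The longest stem-cell-only region lay on chromosome 17 from 16136314 to 16145204. Its peaks covered 7.90 kb in ISC replicate 1 and 8.89 kb in ISC replicate 2, with fold enrichments of 11.4 and 10.6, and the nearest peak of any other group was 168 kb away. The next lay on chromosome 6 from 137387605 to 137395035, where 1 peak in each library covered 7.29 and 7.43 kb and the summits were 26 bp apart. This region was the closest to equal length in the replicates of the 10 longest, with 7.36 ± 0.100 kb (mean ± SD, n = 2). A region on chromosome 1 from 135812032 to 135820313 had 7.05 and 8.28 kb, and 6.38 kb separated it from the nearest E12.5 peak. On chromosome 19 from 24677231 to 24685524, replicate 1 had 5 peaks that summed to 6.98 kb and replicate 2 had 1 peak of 8.29 kb, with summits 1 bp apart. A region on chromosome 17 from 14385950 to 14393664 had 6.70 and 7.72 kb and reached the highest percentile of these 10 in a single list, 86.0 in ISC replicate 2.

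The other 5 of the 10 longest regions outside chromosome 18 ranged from 4.87 to 5.40 kb in ISC replicate 1 and from 5.79 to 7.07 kb in ISC replicate 2. They lay on chromosome 11 from 58443135 to 58450204, on chromosome 16 from 96026020 to 96031940, on chromosome 2 from 102600487 to 102606509, on chromosome 6 from 148011055 to 148017056 and on chromosome 15 from 99331542 to 99337333. The last of these differed most between the replicates in height, at the 62.6th percentile of replicate 1 and the 80.4th of replicate 2. All 10 regions stood above the 60th percentile in both lists, so these long regions were also among the higher ones.

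By height, the leading region was on chromosome 7 from 106841093 to 106843315. It covered 2.14 kb in ISC replicate 1 and 2.22 kb in ISC replicate 2, at the 84.3rd and 82.4th percentiles, with fold enrichments of 13.8 and 18.01. An enterocyte peak lay only 0.289 kb from its edge, whereas the nearest embryonic peak was 19.5 kb away. The next, on chromosome 2 from 25192404 to 25194722, covered 1.85 and 2.32 kb at the 82.1st and 84.1st percentiles, 2.77 kb from an E12.5 peak. The third, on chromosome 12 from 33619109 to 33623484, covered 3.39 and 4.38 kb at the 80.2nd and 83.0th percentiles. The shortest of the 10 highest lay on chromosome 3 from 130541256 to 130542914, with 1.15 and 1.66 kb at percentiles of 78.3 and 78.2. Another, on chromosome 9 from 51059395 to 51062264, had 2.28 and 2.87 kb. The remaining 5 of the 10 highest were also among the 10 longest.

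At the lower end, the covered lengths stopped at a minimum that several regions shared in ISC replicate 1. The 2 smallest stem-cell-only regions, on chromosome 8 from 36991824 to 36992069 and on chromosome 16 from 57030788 to 57031006, each had 0.207 kb in ISC replicate 1 and 0.219 kb in ISC replicate 2. Just outside the rule, 1225 regions had peaks of both ISC lists plus exactly 1 other library. In that other library the peaks covered a median of 0.330 kb. The other library was E14.5 replicate 1 at 388 of them, enterocytes replicate 2 at 315, enterocytes replicate 1 at 228, E12.5 replicate 2 at 151, E14.5 replicate 2 at 131 and E12.5 replicate 1 at 12. The longest of these, on chromosome 14 from 80398690 to 80416407, had 15.7 and 17.7 kb in the ISC libraries and 0.245 kb in E14.5 replicate 2. It was longer than every stem-cell-only region. The next longest lay on chromosome 7 from 25153806 to 25160265 (6.07 and 6.46 kb in ISC, 0.956 kb in enterocytes replicate 2) and on chromosome 4 from 139063261 to 139070411 (5.77 and 7.15 kb in ISC, 1.06 kb in E14.5 replicate 1).

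Set beside the regions found in a single other group, the stem-cell-only regions were the most numerous and held the most long ones. There were 3223 regions only at E12.5, 2252 only at E14.5 and 2748 only in enterocytes. Of the stem-cell-only regions, 157 (4.37%) were covered over at least 2 kb in both ISC libraries. The same held for 73 of the enterocyte-only regions (2.66%), 37 of the E12.5-only regions (1.15%) and 11 of the E14.5-only regions (0.488%). The list of ISC replicate 2 covered the most length of the 8, and the part of that library in these counts was not tested. The region with the greatest smaller covered length had 8.03 kb for E12.5, 7.90 kb for ISC, 5.34 kb for enterocytes and 4.12 kb for E14.5.

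The stem-cell-only regions were spread over the autosomes and the X chromosome. They made up 3.67 to 5.69% of the merged regions of each autosome, with the lowest share on chromosome 1, and 5.30% of those of the X chromosome. None of the 16 merged regions of the Y chromosome was among them.

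Distances from stem-cell-only regions to the nearest peak of another group varied widely, and none are given for all merged regions. In the flanks measured below, E12.5 libraries had a peak at a mean of 43.1% of stem-cell-only regions and 59.9% of all merged regions. For E14.5 libraries these shares were 52.3% and 64.5%, and for enterocyte libraries 40.2% and 47.4%. The nearest peak of another group was a median of 5.34 kb away (quartiles 1.65 and 16.7 kb). It was under 1 kb away at 626 regions (17.4%), from 1 to 5 kb away at 1111 regions (30.9%), from 5 to 20 kb at 1089 (30.3%), from 20 to 100 kb at 622 (17.3%) and at least 100 kb away at the remaining 4.04%. The median was 3.45 kb for enterocyte-only regions, 3.86 kb for E14.5-only regions and 7.22 kb for E12.5-only regions. Regions at least 100 kb from any other group's peak made up 1.38% of the enterocyte-only, 5.24% of the E14.5-only and 9.43% of the E12.5-only regions. On both measures the stem-cell-only regions lay between the enterocyte-only and the E12.5-only regions.

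**Figure D3:**
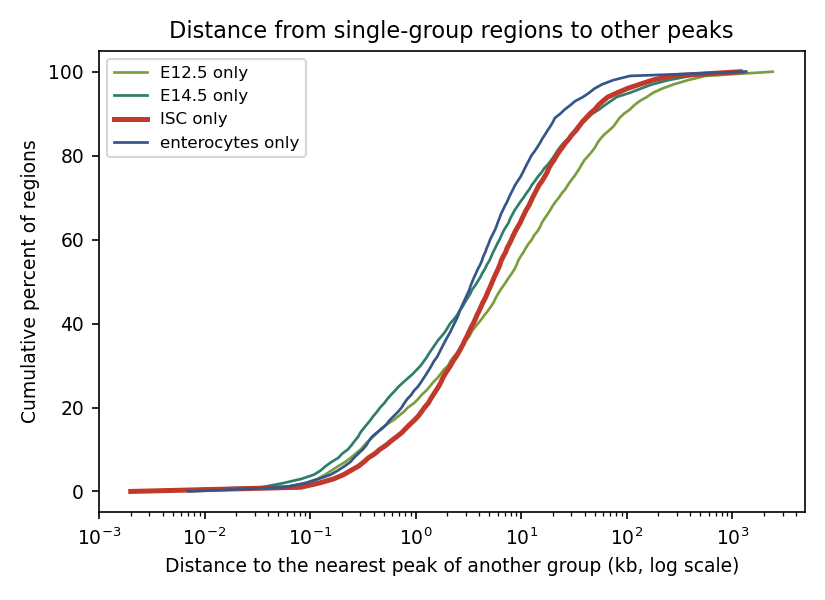
Cumulative percent of regions (y axis) against the distance to the nearest peak of another group (x axis, kb, log scale) for regions found only at E12.5, at E14.5, in ISC or in enterocytes. At 50% the line of the stem-cell-only regions, drawn thick, is at 5.34 kb, between those of E14.5 (3.86 kb) and E12.5 (7.22 kb).

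Of the other groups, E14.5 epithelium most often supplied the nearest peak. An E14.5 peak was nearest at 1558 regions (43.4%), an E12.5 peak at 1056 (29.4%) and an enterocyte peak at 976 (27.2%), with ties between E12.5 and enterocytes at the remaining 3. The median distance was 7.68 kb to an E14.5 peak, 11.6 kb to an E12.5 peak and 13.2 kb to an enterocyte peak. E14.5 libraries also had more peaks (49088 and 52363) than enterocyte libraries (36439 and 35614). Their peaks covered a mean of 61.0 Mb, against 51.8 Mb at E12.5 and 38.8 Mb in enterocytes. The part of these differences in this order was not tested. The same shares were not computed for other regions, so the order is not read as particular to the stem-cell-only regions. The 5 regions farthest from any other group were small. The farthest, on chromosome 12 from 115616825 to 115617579, had 0.638 and 0.755 kb in the ISC libraries and lay 1190 kb from the nearest other peak. The others lay on chromosome 14 from 82258630 to 82259203 (1143 kb), on chromosome 12 from 42952823 to 42953635 (1124 kb) and on the X chromosome from 94571951 to 94572345 (914 kb) and from 44362026 to 44363731 (822 kb). Their covered lengths were 0.263 to 1.17 kb in ISC replicate 1 and 0.281 to 1.65 kb in ISC replicate 2.

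The merged regions directly beside the stem-cell-only regions were often marked in ISC too. Of the 7185 adjacent regions, 6140 (85.5%) had a peak in at least 1 ISC library, against 57.5% of all merged regions. A further stem-cell-only region was the neighbour in 17.1% of cases, and a region called in ISC replicate 2 alone in 27.4%. The corresponding shares over all merged regions were 4.52% and 11.6%. Regions present in all 8 libraries made up 14.0% of the neighbours and 15.5% of all regions. For the other single-group sets, the neighbour was of the same set in 24.3% (enterocytes), 19.5% (E12.5) and 14.48% (E14.5) of cases.

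Stem-cell-only regions were also grouped into clusters, defined here as runs of regions at most 50 kb apart. The share of all merged regions in such runs was not computed. No gap was bridged in the merging, so regions less than 1 kb apart counted as separate regions of a cluster. Merging within 1 kb gave 2338 regions, and 2582 of the 3593 overlapped them. Of the 3593 regions, 1642 stood alone and 1951 (54.3%) fell into 724 clusters. Of these clusters 58 held 5 or more regions, together 342 regions, and the largest held 12. In clusters stood 68.6% of the enterocyte-only, 52.8% of the E12.5-only and 42.5% of the E14.5-only regions. With a distance of 20 kb the share for ISC was 42.7%, and with 100 kb it was 65.6%.

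Outside chromosome 18, the cluster with the greatest covered length spanned 115 kb on chromosome 17, from 16074421 to 16189441. It contained the longest region of all. Its 9 stem-cell-only regions summed to 23.4 kb in ISC replicate 1 and 28.3 kb in ISC replicate 2, and the other 6 libraries had no peak anywhere in the span. With 3 more stem-cell-only regions to its left, it was part of a stretch of 1119.5 kb, from 15968544 to 17088047, that was free of peaks of the other 6 libraries. Within that stretch ISC peaks covered 26.1 kb in replicate 1 and 35.4 kb in replicate 2. At its left edge lay a broad region, from 15944197 to 15969761, in which peaks covered 23.8 and 25.3 kb in the ISC libraries. The same broad region was marked more narrowly in the other groups, over 6.42 and 5.43 kb in the enterocyte libraries, 4.46 and 4.24 kb in the E14.5 libraries, and 1.94 and 3.66 kb in the E12.5 libraries. At its right edge all libraries but enterocytes replicate 2 had 0.281 to 1.16 kb of peak.

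**Figure D4:**
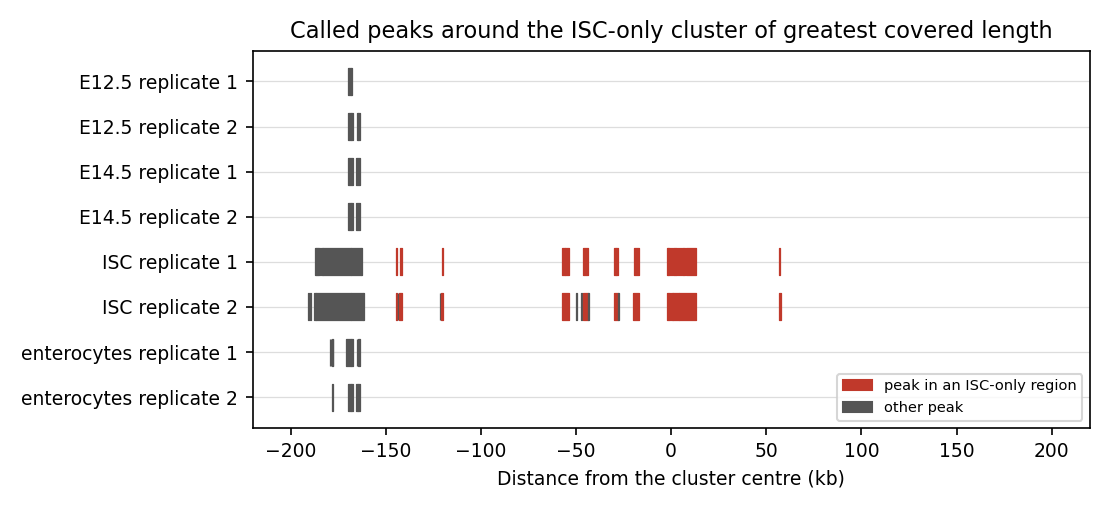
Called peaks of the 8 libraries (rows) by distance from the centre of the cluster of greatest covered length outside chromosome 18 (x axis, kb). Peaks of stem-cell-only regions are in red and other peaks in grey. To the right of the broad grey region at the left, which all 8 libraries mark, peaks appear in the 2 ISC rows and in none of the other 6 rows.

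A cluster on chromosome 7 from 81516251 to 81570373 was likewise free of peaks in the other 6 libraries. Its 7 stem-cell-only regions summed to 11.7 kb in ISC replicate 1 and 18.8 kb in ISC replicate 2. The ISC libraries differed more here than in the cluster on chromosome 17, since all peaks in the span covered 11.7 and 23.1 kb. The peak-free stretch around it ran over 195 kb, from 81499510 to 81694721, and held 8 stem-cell-only regions.

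The 3 other leading clusters contained peaks of other groups between the stem-cell-only regions. The cluster with the most regions, 12, spanned 194 kb on chromosome 5 from 3152121 to 3346223. Peaks of all kinds in that span covered 20.4 and 25.2 kb in the ISC libraries, 5.23 ± 0.290 kb in the E14.5 libraries, 4.39 ± 0.278 kb in the E12.5 libraries and 2.84 ± 0.594 kb in enterocytes (mean ± SD, n = 2). Its stem-cell-only regions accounted for 13.9 and 16.5 kb of the ISC values. On chromosome 17 from 14381556 to 14431660, 4 stem-cell-only regions summed to 13.3 and 17.1 kb. E12.5 had no peak in this 50.1 kb span, E14.5 had 1.24 ± 0.0608 kb, and of the enterocyte libraries only replicate 2 had any, 1.40 kb. On chromosome 16 from 95984944 to 96067737, 8 regions summed to 11.3 and 16.6 kb, again with no E12.5 peak, 2.48 ± 0.203 kb at E14.5 and 0.245 ± 0.0389 kb in enterocytes.

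Over the genome, 580 stretches between successive peaks of the other 6 libraries held 2 or more stem-cell-only regions, with 1429 regions (39.8%) among them, and 18 stretches held 5 or more. These stretches were defined after the data had been seen. Apart from those on chromosomes 17 and 7, the leading ones by covered length were ranked without chromosome 18. They held 3 regions on chromosome 6 (137118286 to 137414568), 4 on chromosome 15 (99305624 to 99478989) and 8 on chromosome 6 (94831746 to 95067807). The last of these is near the longest peak of both ISC libraries, which belongs to a region marked in all 8 libraries on chromosome 6 from 94613096 to 94653292. That region was covered over 39.1 and 40.2 kb in the ISC libraries, 25.1 and 22.4 kb in the E14.5 libraries, 9.44 and 12.8 kb in the E12.5 libraries, and 4.63 and 11.3 kb in the enterocyte libraries. Within 300 kb of the longest peak lay 13 stem-cell-only regions with 20.2 kb in the smaller ISC values. By the smaller ISC length the longest of them, from 94583876 to 94589857, had 4.02 and 5.98 kb, and another, from 94737954 to 94744761, had 3.72 and 6.81 kb.

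The surroundings of the stem-cell-only regions were then measured in the 10 kb on each side, outside the regions themselves. After scaling each library to the same total covered length, peaks covered a mean of 2.38 ± 0.0421 kb in these flanks in ISC (mean ± SD of the 2 libraries). They covered 1.26 ± 0.0543 kb in enterocytes, 1.18 ± 0.000519 kb in E14.5 libraries and 0.974 ± 0.00776 kb in E12.5 libraries. Flanks of all merged regions had 1.69 ± 0.0602 kb in ISC, 1.79 ± 0.0497 kb in enterocytes, 1.66 ± 0.0233 kb in E14.5 libraries and 1.60 ± 0.0304 kb in E12.5 libraries. The flanks of stem-cell-only regions thus held more ISC peak length than flanks in general and less of every other group, in both libraries of each group. These flanks could hold further stem-cell-only regions, in which the rule itself set ISC peaks and no peaks of other groups. The part of such neighbours in the difference was not tested. Enterocyte-only regions had 4.30 ± 0.406 kb of enterocyte peak in their flanks, and E12.5-only regions had 1.97 ± 0.0253 kb of E12.5 peak. The flanks of 2604 stem-cell-only regions (72.5%) had peaks of both ISC libraries, 1275 (35.5%) had no peak of another group, and 478 (13.3%) had no peak of any library.

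**Figure D5:**
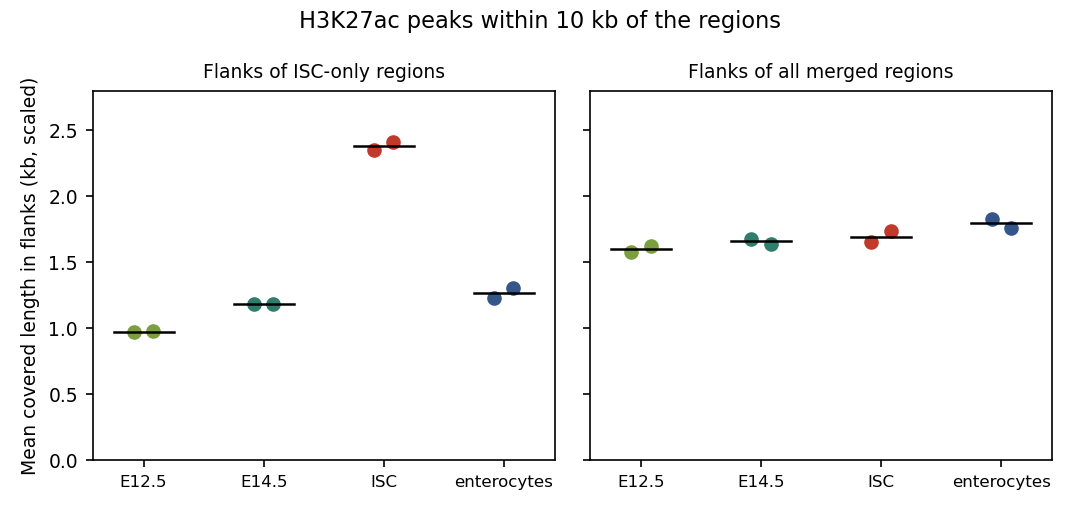
Mean length covered by peaks in the 10 kb on each side of a region (y axis, kb, scaled to equal total covered length) for each library as a point and each group's mean as a horizontal line, for stem-cell-only regions (left) and all merged regions (right). On the left the ISC points (mean 2.38 kb) lie above all others, whereas on the right the group means lie between 1.60 and 1.79 kb.

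There were 2 contrasts without ISC that could be tested in the flanks, by limma over the flanks of all merged regions with Benjamini-Hochberg adjustment and a threshold of 0.05. The first asks whether the surroundings of stem-cell-only regions gained or lost marked length between E12.5 and E14.5. Of the 3593 regions, 2081 had flank peaks in at least 2 of the 6 libraries outside ISC, a filter added after the data had been seen. Among these, marked length rose in 486 (23.4%) and fell in 98 (4.71%), beside 17.7% and 12% of the 59179 flanks that passed the same filter. The median change was 0.12 on the log2 scale for the stem-cell-only regions and 0 for all flanks. The filter chosen first asked for flank peaks in at least 2 of all 8 libraries and passed 2802 of the regions, of which 721 passed only with the help of their ISC peaks and could hardly be called in a contrast without ISC. Under it 484 rose (17.3%) and 95 fell (3.39%), beside 16.2% and 11.1% of 63082 flanks, and nothing is read from the distance between these shares.

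The number of called flanks depended on single libraries, over all flanks as well as around the stem-cell-only regions. With the filter on all 8 libraries, rises numbered 299 without E12.5 replicate 1 (10.7% of the regions tested, beside 10.1% of all flanks). They numbered 271 without E14.5 replicate 1 (9.77% beside 7.56%) and 278 without E14.5 replicate 2 (9.96% beside 7.71%). Falls numbered 60 without E12.5 replicate 1 (2.15% beside 5.17%) and 61 without E12.5 replicate 2 (2.20% beside 5.43%). They numbered 57 without E14.5 replicate 1 (2.05% beside 8.00%), 43 without E14.5 replicate 2 (1.54% beside 6.35%) and 33 without scaling (1.18% beside 5.98%). Rises numbered 429 without E12.5 replicate 2 (15.5% beside 16.0%) and 374 without scaling (13.3% beside 12.4%). They outnumbered falls around the stem-cell-only regions in each of these analyses. The fit with the filter on the 6 libraries outside ISC was not rerun in these ways. Over all flanks, rises also outnumbered falls in these analyses, except without E14.5 replicate 1, where falls (4916) outnumbered rises (4645).

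The second contrast, of enterocytes with E14.5, compares an adult with an embryonic group in the same flanks. It shares the E14.5 libraries with the first, so the calls of the 2 contrasts are not independent. With the filter on the 6 libraries outside ISC, marked length was higher in enterocytes around 550 of the 2081 regions (26.4%) and lower around 701 (33.7%). Over all flanks 26.9% were higher and 37.8% lower, so the share of higher calls was near the background and that of lower calls was somewhat below it. With the filter on all 8 libraries, 542 were higher (19.3%) and 693 lower (24.7%), beside 25% and 35% of all flanks, again with the 721 regions that passed only through ISC peaks among those tested. Without scaling for the total covered length, which is lowest in enterocytes, 215 of these were higher (7.67%) and 797 lower (28.4%). Over all flanks the shares without scaling were 13.1% and 38.9%. The share of calls that were higher then was 21.2% in place of 43.9%, and over all flanks it moved alike, to 25.1% from 41.6%.

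Of the 22 regions named above as longest, highest, farthest or smallest, 15 had no flank peak in any library outside ISC. The 5 farthest were among these 15 by their selection, and 35.5% of all stem-cell-only regions had no such peak. Of the 22, 3 had a flank peak in 1 library outside ISC and 4 in at least 2. Of these 4, the regions on chromosome 1 from 135812032 and on chromosome 2 from 25192404 had limma adjusted p-values of 0.739 and 0.173 between E12.5 and E14.5. The other 2 passed the threshold, in the fit with the filter on all 8 libraries, in which 16.2% of all flanks rose and 11.1% fell. Around the region on chromosome 12 from 33619109 to 33623484, flank peaks covered 0 kb in both E12.5 libraries, 2.50 and 1.84 kb in the E14.5 libraries, 11.3 and 14.1 kb in ISC and 0 kb in both enterocyte libraries. The rise from E12.5 to E14.5 was 2.26 (SE 0.145) on the scale of log2(scaled bp + 500), with a limma adjusted p of 0.000437, and the fall from E14.5 to enterocytes had an adjusted p of 8.12e-05. Around the region on chromosome 3 from 130541256 to 130542914, flank peaks covered 0 kb in both E12.5 libraries, 1.60 and 1.65 kb in the E14.5 libraries, 3.13 and 4.12 kb in ISC and 1.45 and 1.75 kb in enterocytes. Here the rise to E14.5 was 1.95 (SE 0.145, limma adjusted p = 0.000607). After scaling, enterocytes were higher than E14.5 by 0.48 (limma adjusted p = 0.0293). Before scaling, the lengths just given overlapped between E14.5 and enterocytes. The mean total covered length was 61.0 Mb at E14.5 and 38.8 Mb in enterocytes. At both regions several libraries were at 0, so the SE rests largely on the spread that limma takes from the other flanks.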

How the data were processed

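The build mm9 and the tools Bowtie 1.1.2, bcl2fastq 1.8.4, SAMtools 1.2 and MACS2 are named in the submitters' processing notes. Each library was set against its own input, per the file headers, with MACS 2.1.0.20140616 in narrow mode at a q-value of 0.05, with 1 tag kept per position. The deposited lists give each peak's length, pileup signal, −log10 p and −log10 q, and fold enrichment ratio. These scores are the authors' and only rank peaks within a list. They give no read counts per region, so signal below the calling threshold was not seen and no counting interval is given.

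Peaks were merged and regions selected with Python 3.11.15. Flanks were fitted with limma 3.58.1 in R 4.3.3 (eBayes with trend and robust) on log2(scaled covered bp + 500), with 4 group means and 4 residual degrees of freedom. The spread behind each p is that of these 8 libraries. Neighbouring flanks overlap. The scripts were tested on simulated data.

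The regions, lists and tests were chosen with earlier results of these data known. Named were the 10 longest regions by the smaller ISC length, the 10 highest by the lower percentile, the 5 farthest from other peaks, the 2 smallest, the 3 longest just outside the rule and the 5 clusters with the greatest covered length. Regions on chromosome 18 were counted but not named, and they were left out before ranking. The lists passed over 3 regions there by length, 2 by height and 1 cluster. The planned marker gene lists were not used here.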

Additional observations from a re-analysis of the deposited data

How the results depend on the processing

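Peak calls limit these results: a region weakly marked below the threshold in another group counts as stem-cell-only, and a longer region with a single weak peak elsewhere does not. The count of 3593 regions was 2657 with equal numbers of peaks per library (35614). It was 2153 when all peaks had to reach −log10 q of 10, 2338 with merging within 1 kb, 2257 when ISC peaks had to cover 50% of the region, and 946 when only ISC peaks had to reach −log10 q of 10. Of the 2153 regions under the stricter threshold for all lists, 43.9% overlapped the 3593, and they overlapped 26.3% of these. With 1 library left out the count ran from 3607 to 13066. The stricter threshold gave a median smaller ISC length of 1.01 kb in place of 0.433 kb, and 935 regions with another within 50 kb in place of 1951. Of the 22 named regions, 17 kept peaks in both ISC libraries under the stricter threshold and 18 with equal peak numbers.

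Of 144 flank counts under alternatives, 114 were within 1.5 times. With flanks of 50 kb, 785 regions rose and 213 fell at E14.5 (22.9% and 6.22% of those tested, beside 19.8% and 12.04% of all flanks), and 913 were higher and 1142 lower in enterocytes (26.7% and 33.3%, beside 29.3% and 39.0%). Under the stricter threshold these were 172, 33, 259 and 308 (11.8%, 2.27%, 17.8% and 21.2%), and over all flanks 3301, 1410, 6155 and 7470 (12.3%, 5.25%, 22.9% and 27.8%). Without scaling, falls at E14.5 were 33 (1.18%), beside 3773 over all flanks (5.98%). Higher calls in enterocytes were then 215 (7.67%), beside 8250 over all flanks (13.1%). With peaks in at least 4 of 8 libraries, 4188 of all flanks fell at E14.5. With a library left out, E14.5 rises ran from 271 to 486 and falls from 43 to 117, and over all flanks from 4645 to 10361 and 3151 to 7329. As shares of those tested, rises were 9.77 to 21.7% (7.56 to 17.2% over all flanks). Falls were 1.54 to 5.22% (5.17 to 12.2% over all flanks). For enterocytes the ranges were 386 to 552 higher and 517 to 694 lower, and over all flanks 12264 to 15884 and 16505 to 22000. As shares, higher calls were 13.9 to 24.6% (19.8 to 26.4% over all flanks). Lower calls were 18.6 to 31.0% (26.9 to 36.5% over all flanks). With a replicate block, 437 rose and 82 fell at E14.5 (15.6% and 2.93%, beside 14.6% and 9.70% of all flanks), and 510 were higher and 670 lower in enterocytes (18.2% and 23.9%, beside 24.2% and 34.1%). The pairing of replicate numbers is not given by the labels, and deviations of same-numbered libraries correlated between −0.16 and 0.15 across the pairs of groups.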
